A study of Mus musculus with 2 samples.

Results

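Chemokines and their receptors were described in tumours that the mouse pancreatic cancer line Panc02 formed under the skin, as 51 genes of the 28785 gene names on the array. They were chosen by name: Ccl, Cxcl, Ccr or Cxcr followed by a number in both scanner files, with Cx3cl1, Cx3cr1, Xcl1, Xcr1 and Pf4 added. These were 35 ligands and 16 receptors. Both groups were C57BL/6 mice that entered their housing at 3 weeks of age, received Panc02 cells under the skin and kept that housing for 5 weeks more, with standard caging in one group and an enriched environment in the other. The labels give no sex and do not list what the enrichment held. RNA from the tumours of 6 mice per housing was pooled before labelling, and each pool was measured on 1 one-colour array. There is thus 1 value per gene and housing, with no spread between mice and no test, and every difference below describes these pools. In such whole-tumour RNA, more or fewer cells of a type and more or less RNA per cell cannot be told apart.

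Chemokines are small secreted proteins that draw white blood cells along a gradient by binding receptors of the seven-pass, G protein-coupled class. Their families are named for the spacing of the first conserved cysteines, which are adjacent in the Ccl family, separated by a single residue in the Cxcl family and by a longer stretch in Cx3cl1. Inflammatory members are switched on by signals such as interleukin 1, tumour necrosis factor and interferons and bring in neutrophils, monocytes and effector lymphocytes, whereas homeostatic members place lymphocytes and dendritic cells in lymphoid tissue. In pancreatic carcinoma, the Ccr2 and Cxcr2 axes are known for bringing monocytes and neutrophils into the tumour.

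The labels call the tissue pancreatic cancer, and its epithelial markers were present in both pools, with Krt8 at 5.19 and 7.33 and Epcam at -0.44 and 1.63 (standard and enriched, on the log2 scale set out next). The pools also differed in other tissue. The log2 summed level of 8 skeletal muscle markers was 10.5 under standard housing against 2.996 under enrichment, and that of 5 erythroid markers 7.85 against 2.10. The part of these tissues in the chemokine values was not tested.

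Levels are log2 intensities after subtraction of the array's own 75th percentile, and differences are the level under enrichment minus that under standard housing. Of the 51 genes, 43 were well above background on both arrays, 3 on the standard array only, 2 on the enriched array only and 3 on neither. With a threshold of 2-fold, 13 of the 43 (30.2%) were higher under enrichment and 3 (6.98%) were lower. The background shares among the 20852 genes of the whole array that could be measured in both pools were 5.71% higher and 9.46% lower. The median difference was 0.21 over the 43 genes and 0.03 over all genes. It was 0.10 over 32 ligands, of which 11 were at least 2-fold higher and 3 lower, and 0.29 over 11 receptors, of which 2 were at least 2-fold higher and none lower. The ligands, 32 of the 43 genes, held most of the large differences in both directions, while 17 lay above 0 and 15 below. Their share higher was 34.4%, against 18.2% of receptors, and their share lower was 9.38%, near the 9.46% of all genes. Where the arrays were centred on cytosolic ribosomal protein genes, which moved the median of all genes to -0.18, the median of the 43 became -0.0045, with 11 genes at least 2-fold higher and 5 lower. Among the 43, Ccr6 at 1.01 lay just inside the 2-fold threshold of 1 on the log2 scale and Ccl9 at -0.99 just outside it.

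**Figure D1:**
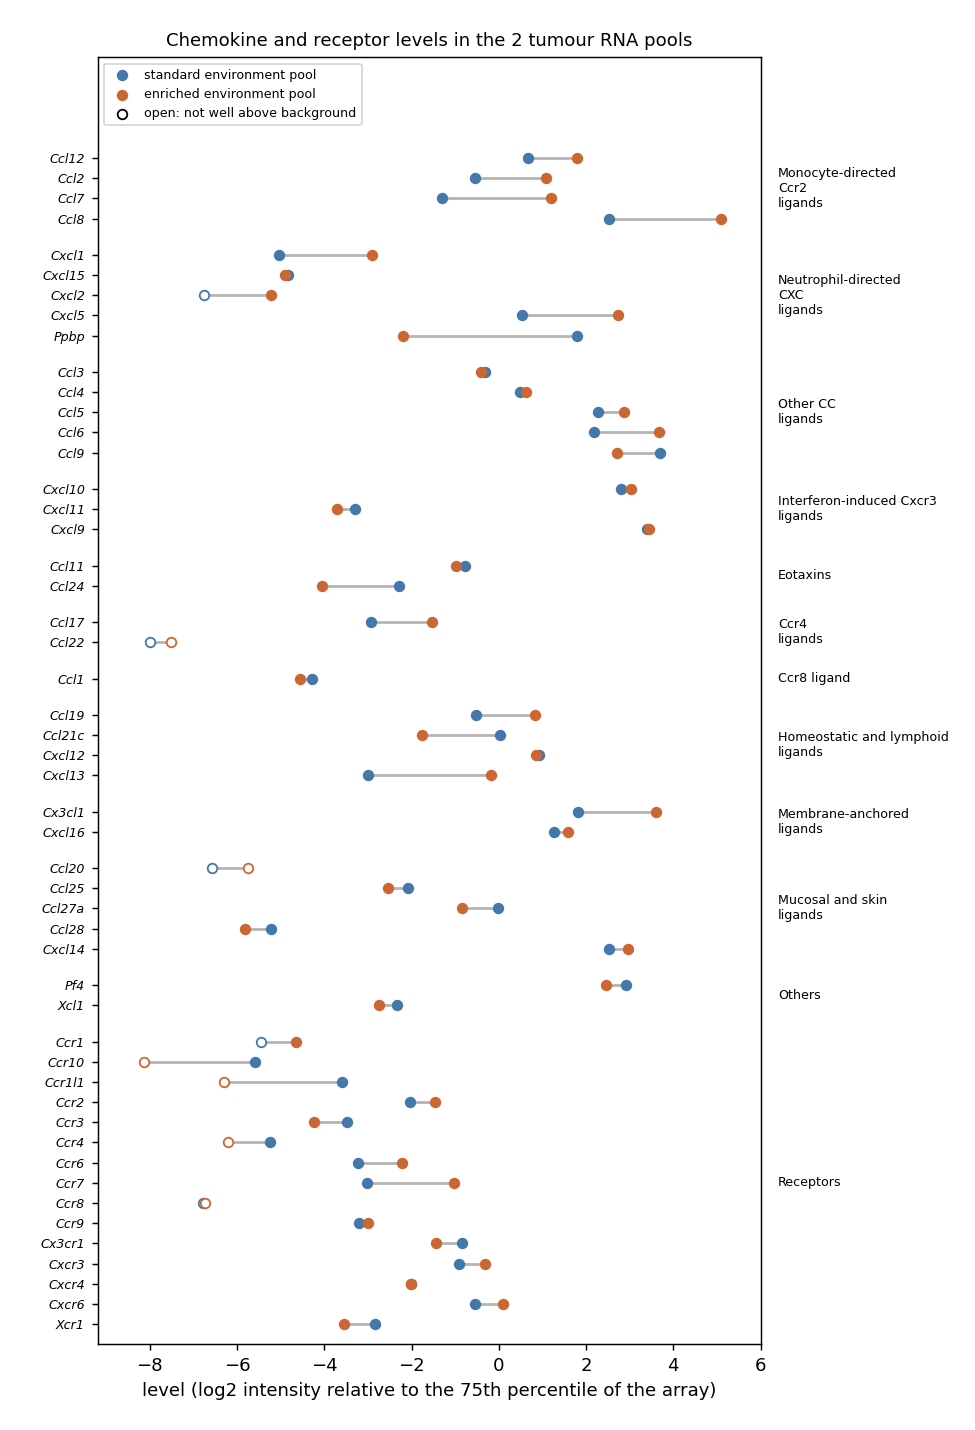
Level of the chemokine and receptor genes in the standard (blue) and enriched (orange) pools, as log2 intensity minus the array's 75th percentile, by role; open points were not well above background. The 4 genes listed as Ccr2 ligands, at the top, were all higher under enrichment, and Ppbp lay far lower. Levels of different probes are not comparable with each other.

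The precision of a single array pair comes from the probes. A member with 1 probe is given with the error that the scanner software attached to its spots, converted to the log2 difference, which had a median of 0.20 over the 43 genes and ran from 0.20 to 0.38. A member with several probes is given with the SD between them. Both are technical errors only. The software error is a figure attached by the scanner software, not a spread measured between arrays or mice. It was nearly constant, with a median of 0.2045 and a lowest value of 0.2040. The SD between probes is another quantity and can be smaller, as for Ccl7 with 0.05 against a software error of 0.20. Of 12 members with several measured probes, 9 had all probes on 1 side of 0.

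Ccr2 is the receptor by which inflammatory monocytes leave the bone marrow and enter tissue. The genes listed here as its ligands by textbook pairing were higher under enrichment in 4 of 4 cases, with a median difference of 2.06. This count and median include Ccl8, whose pairing with Ccr2 in the mouse was not tested and is not settled by these data. Ccl8 had a level of 2.53 under standard housing and 5.09 under enrichment, a difference of 2.55 ± 0.20 (software error) or 5.87-fold. Ccl7 was at -1.31 and 1.19, a difference of 2.50 ± 0.05 (SD, n = 2 probes) or 5.64-fold. Ccl2, the archetypal monocyte attractant of tumours, was printed as 10 spots on each array, with a spot SD of 0.08 on the standard and 0.04 on the enriched array, and was at -0.55 and 1.08, a difference of 1.63 ± 0.20 or 3.10-fold. Ccl12, a rodent relative of Ccl2, was at 0.68 and 1.80 and differed by 1.12 ± 0.20, or by 0.91 with ribosomal centring, which is under 2-fold. Each of the 4 differences was larger than the technical error given with it, which holds no spread between mice. Ccr2 itself was at -2.03 and -1.47, a difference of 0.56 ± 0.28 (SD, n = 2 probes). The receptor was thus higher by less than any of the 4 listed ligands. The monocyte and macrophage marker list had a median of 0.34 over 9 genes, with Csf1r at -0.04, Adgre1 at 0.34 and Cd68 at 0.13. Only Cd14, at 1.16, was at least 2-fold higher among these markers, with Mrc1 at 0.97 just under the threshold. Ly6c1 was at 0.73 and Itgam at 0.55, and of the 9 genes 7 lay above 0 and 2 below. The part of this list in the ligand differences was not tested.

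These 4 genes are neighbours. On the mm7 build, on which the array places its probes, Ccl2, Ccl7, Ccl11, Ccl12, Ccl8 and Ccl1 follow one another on chromosome 11 between 82118723 and 82258468. Ccl11, or eotaxin, which lies between Ccl7 and Ccl12, differed by -0.20 ± 0.20. Ccl1, a Ccr8 ligand at the far end, differed by -0.26 ± 0.28. The cluster was therefore not uniform, with 4 of 6 genes at least 2-fold higher, Ccl12 among them only without ribosomal centring, and the other 2 apart by less than their technical error. The part of the gene in which each probe lies was not analysed here.

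**Figure D2:**
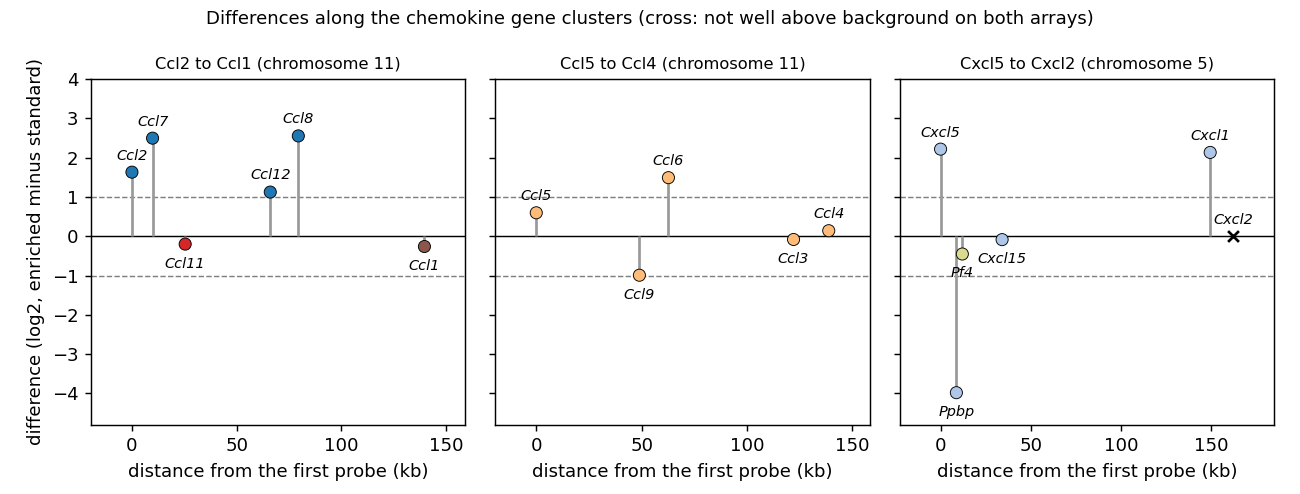
Difference (log2, enriched minus standard) against the distance in kb from the first probe for members of 3 gene clusters on mm7, coloured by role; dashed lines mark 2-fold. Ccl2, Ccl7, Ccl12 and Ccl8 lie above the upper line while Ccl11 and Ccl1 lie near 0, and Ppbp lies at -3.98 beside Cxcl5 at 2.22.

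The CXC ligands that act on neutrophils through Cxcr2 split in an adjacent set of genes on chromosome 5, between 90732453 and 90894807 on mm7. Cxcl5, which is secreted by epithelium, was at 0.52 under standard housing and 2.74 under enrichment, a difference of 2.22 ± 0.20 or 4.65-fold. Cxcl1 was at -5.05 and -2.91, a difference of 2.13 ± 0.28, or 4.38-fold. Its standard level lay close to the lowest signal well above background on that array, -5.68, and the difference was 0.84 under another background correction (normexp). Cxcl2 was well above background on the enriched array only, with levels of -6.75 and -5.23, which bounds it as at least 1.37-fold higher there. Cxcl15, a lung chemokine, was at -4.82 and -4.91, and its probes at -0.32 and 0.15 lay on both sides of 0.

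Ppbp, listed in the files as Cxcl7, is the chemokine precursor that platelets store in their granules, and it went the other way. It was at 1.79 under standard housing and -2.19 under enrichment, a difference of -3.98 ± 0.21 or 15.8-fold, the largest among the 43 genes. Its probe lies 8.77 kb from that of Cxcl5. Pf4, platelet factor 4, listed as Cxcl4 and lying beside it, was at 2.91 and 2.46, a difference of -0.45 ± 0.20. The platelet marker list was below 0 in 7 of 7 genes, 6 of them by at least 2-fold, with a median of -3.01, including Gp9 at -4.50, Gp1ba at -3.63 and Itga2b at -0.93, and its log2 summed level was 1.58 under standard housing and -1.39 under enrichment. The erythroid list was lower in 5 of 5 genes with a median of -5.72, and skeletal muscle in 8 of 8 with a median of -8.43. The part of these cells in the Ppbp and Pf4 differences was not tested.

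Promoters are shown for neighbours in this cluster with differences of opposite sign, Cxcl1 and Cxcl3 (higher) and Ppbp (lower), and for Cxcl2, which was seen on the enriched array only. No promoter entry was found for Cxcl5, and promoters of Pf4 and Cxcl15 from the same cluster are not shown. They are the 250 bases before the transcription start, from RefSeq on GRCm38.p6, all on the plus strand: Cxcl1 at chr5:90890995-90891244, Cxcl2 at chr5:90903649-90903898, Cxcl3 at chr5:90785851-90786100 and Ppbp at chr5:90768268-90768517. Cxcl3 is on the array under the name Gm1960. Capitals mark matches to GGG and TTTCC separated by any 2 bases, on either strand, a form of the site bound by NF-kB, the factor through which interleukin 1 and tumour necrosis factor act.
Cxcl1: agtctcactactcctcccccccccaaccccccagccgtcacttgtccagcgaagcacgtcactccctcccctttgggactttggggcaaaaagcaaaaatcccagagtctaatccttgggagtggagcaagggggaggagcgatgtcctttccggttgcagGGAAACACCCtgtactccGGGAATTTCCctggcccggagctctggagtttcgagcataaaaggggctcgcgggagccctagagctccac
Cxcl2: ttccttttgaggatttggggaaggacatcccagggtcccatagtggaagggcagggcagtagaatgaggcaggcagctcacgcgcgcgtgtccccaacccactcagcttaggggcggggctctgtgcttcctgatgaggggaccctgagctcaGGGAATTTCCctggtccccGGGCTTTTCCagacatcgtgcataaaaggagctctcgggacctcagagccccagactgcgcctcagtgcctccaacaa
Cxcl3: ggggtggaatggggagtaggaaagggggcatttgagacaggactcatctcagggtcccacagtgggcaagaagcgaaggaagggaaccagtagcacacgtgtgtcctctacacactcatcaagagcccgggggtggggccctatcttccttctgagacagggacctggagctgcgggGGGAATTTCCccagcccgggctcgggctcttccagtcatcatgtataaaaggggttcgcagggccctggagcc
Ppbp: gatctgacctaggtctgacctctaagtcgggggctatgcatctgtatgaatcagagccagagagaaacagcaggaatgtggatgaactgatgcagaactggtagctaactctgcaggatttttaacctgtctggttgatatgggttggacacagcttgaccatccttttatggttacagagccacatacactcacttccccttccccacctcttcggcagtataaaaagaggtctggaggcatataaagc
The matches begin 89 and 71 bases before the start in Cxcl1, 97 and 78 bases in Cxcl2 and 73 bases in Cxcl3, and do not overlap. Ppbp has none in this window. Cxcl3 was at -3.00 and -1.32, a difference of 1.68 or 3.20-fold, so that Cxcl1, Cxcl3 and Cxcl5 were all at least 2-fold higher in the main setting. With the normexp correction Cxcl1 was at 0.84, under 2-fold, and no such value is given for Cxcl3, which has 1 probe. Promoter entries were found for 38 of the 51 genes, and 5 of them, or 13.2%, held the motif, against 1.65% of all 27025 genes in the table and 1.41% of all promoters. Beside Cxcl1 and Cxcl2 these were Ccl9, Ccr3 and Ccl20, of which Ccl9 and Ccr3 were lower and Ccl20 was not well above background. A second motif, 2 copies of GAAA separated by any 2 bases, a form of the interferon-stimulated response element, was found on either strand in Ccl19, Cxcl10 and Cxcl14, or 7.89% of the 38 genes, against 3.46% of all genes and 2.98% of all promoters. A match is a run of letters and not a shown binding site.

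The receptor of the neutrophil ligands, Cxcr2, is on the array as Il8rb and so falls outside the naming rule. It was at -3.56 under standard housing and -2.12 under enrichment, a difference of 1.44 ± 0.09 (SD, n = 2 probes). Neutrophil markers divided beside it. Csf3r, the receptor for the neutrophil growth factor, differed by 0.61, while S100a8 differed by -1.88, S100a9 by -1.33 and the granule enzyme gene Mpo by -6.65. Of the list, 5 of 6 measured genes were at least 2-fold lower, and Elane, Ngp and Camp were well above background on the standard array only. The log2 summed level of the list was 7.45 under standard housing and 5.87 under enrichment, so this list was lower where Cxcr2, Cxcl1 and Cxcl5 were higher, and its part in their values was not tested. Cxcr1, listed as Il8ra, was not well above background on either array.

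The 5 inflammatory CC ligands of another cluster on chromosome 11, Ccl5, Ccl9, Ccl6, Ccl3 and Ccl4, were mixed. Ccl6, a rodent ligand of Ccr1 made by myeloid cells, was at 2.17 under standard housing and 3.66 under enrichment, a difference of 1.49 ± 0.20. Its near neighbour Ccl9, another Ccr1 ligand, was at 3.70 and 2.71, a difference of -0.99 ± 0.20. These genes, 13.8 kb apart by their probes on chromosome 11, therefore differed in opposite directions. Ccl5, a product of activated T cells and macrophages, differed by 0.60 ± 0.10 (SD, n = 2 probes). Ccl3 differed by -0.08 and Ccl4 by 0.14, each less than the software error of 0.20. Ccr1 was well above background on the enriched array only, with levels of -5.45 and -4.65, or at least 1.74-fold higher.

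The interferon-induced ligands of Cxcr3, which draw activated T cells and natural killer cells, showed no member past 2-fold. Cxcl9 was at 3.39 under standard housing and 3.45 under enrichment, a difference of 0.067 ± 0.20. Cxcl10 differed by 0.22 ± 0.20 and Cxcl11 by -0.43 ± 0.23. Of these, Cxcl9 lay closer to 0 than its technical error, and Cxcl10 and Cxcl11 were of opposite sign. Cxcr3 itself was at -0.91 and -0.32, a difference of 0.59 ± 0.20, and Cxcr6, a receptor of resident T cells, differed by 0.64 ± 0.20. In the T cell list the median was -0.0016 over 7 genes, from Cd4 at -0.59 to Lck at 0.99, and in the natural killer list 0.49 over 5 genes. Among upstream genes of this axis, Ifng differed by -0.32 and Irf1 by 0.35.

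Homeostatic and lymphoid ligands gave both the highest single difference and a clear opposite. Cxcl13, which organises B cell follicles, was at -2.99 under standard housing and -0.17 under enrichment, a difference of 2.82 ± 0.21 or 7.08-fold. Its receptor Cxcr5, on the array as Blr1, differed by 0.70, while the B cell list had a median of -0.10. Ccl19, a ligand of Ccr7, was at -0.52 and 0.83, a difference of 1.35 ± 0.45 (SD, n = 2 probes). Ccr7, by which dendritic cells and naive T cells reach lymph nodes, was at -3.03 and -1.02, a difference of 2.005 ± 0.21 or 4.01-fold. The other Ccr7 ligand, Ccl21c, was at 0.017 and -1.77, a difference of -1.78 ± 0.20. The Ccr7 ligands therefore differed in opposite directions. The Ccl21c probe is listed with 3 RefSeq accessions, those of Ccl21a, Ccl21b and Ccl21c, so these near-identical copies cannot be told apart. Of lymphatic and lymph node markers, Lyve1 differed by -0.84, Pdpn by 0.98, Madcam1 by -1.12 and Cr2 by 0.02. Glycam1 was well above background on the enriched array only and Prox1 on neither, and their part in these differences was not tested.

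Cxcl12, a stromal chemokine that retains cells bearing Cxcr4, was read differently by its probes. The probe for transcript variant 1, on chromosome 6 from 117200799 to 117200858 on mm7, was at -1.02 under standard housing and 0.29 under enrichment, a difference of 1.30 ± 0.20. The probe for transcript variant 2, which also lists another accession, from 117207552 to 117207611, was at 2.86 and 1.43, a difference of -1.42 ± 0.20. Each was past 2-fold, in opposite directions, so the gene mean of -0.06 ± 1.93 (SD, n = 2 probes) describes neither. No other member had probes past 2-fold on both sides. Its receptor Cxcr4 differed by -0.0023 ± 0.10 (SD, n = 2 probes), and the scavenging receptor Ackr3, on the array as Cmkor1, by -0.12. Fibroblast markers were also divided, with Col3a1 at 2.96 and Col1a1 at 2.02 against Pdgfrb at -1.18 and Dcn at -1.03.

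**Figure D3:**
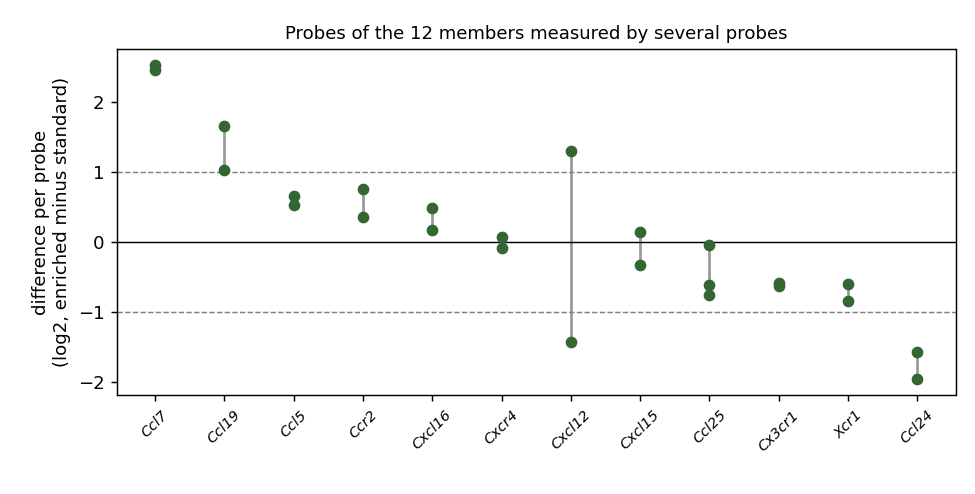
Difference of each probe (log2, enriched minus standard) for the 12 members with several probes well above background on both arrays; each point is a probe and dashed lines mark 2-fold. The Cxcl12 probes lie at 1.30 and -1.42, while those of Ccl7, Ccl19 and Ccl24 stay on 1 side.

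Cx3cl1, a chemokine tethered to the membrane of epithelial and endothelial cells, was at 1.81 under standard housing and 3.61 under enrichment, a difference of 1.80 ± 0.20 or 3.49-fold. A second Cx3cl1 probe was well above background on the enriched array only. Its receptor Cx3cr1, found on patrolling monocytes and many tissue macrophages, differed by -0.61 ± 0.03 (SD, n = 2 probes), so ligand and receptor differed in opposite directions. Cxcl16, the other tethered ligand, differed by 0.33 ± 0.22 (SD, n = 2 probes). Carcinoma epithelium markers were at least 2-fold higher in 7 of 7 genes, with a median of 2.14 and Epcam at 2.07, and endothelial markers were below 0 in 6 of 6, 2 of them by at least 2-fold, with a median of -0.85. Their part in the Cx3cl1 and Cxcl5 differences was not tested.

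Ligands of eosinophil and type 2 responses did not go together. Ccl24, or eotaxin 2, was at -2.29 under standard housing and -4.06 under enrichment, a difference of -1.77 ± 0.27 (SD, n = 2 probes) or 3.40-fold. Ccr3, the eotaxin receptor, was at -3.49 and -4.24, a difference of -0.75 ± 0.23 from 1 of its 2 probes, the other not being well above background. Ccl17, a dendritic cell product that binds Ccr4, was at -2.93 and -1.54, a difference of 1.39 ± 0.21, which was 0.98 and so under 2-fold with the normexp background correction. The other Ccr4 ligand, Ccl22, was not well above background on either array. Ccr4 was so on the standard array only, at -5.24 against -6.21, or at least 1.95-fold lower under enrichment. The eosinophil and mast cell list was divided, with the eosinophil gene Prg2 at -2.96, Siglecf at 1.999 and the mast cell proteases Cma1 at 2.14 and Mcpt4 at 1.70. Epx, another eosinophil gene, was well above background on the standard array only, at least 3.43-fold higher there, and Kit was at -0.02. Of 6 measured genes of the list, 4 were at least 2-fold higher and 1 lower, beside 5.71% and 9.46% of all genes.

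Ligands of mucosa and skin were mostly lower by less than 2-fold. Ccl27a, a keratinocyte chemokine listed as Ccl27, differed by -0.81 ± 0.20, Ccl28 by -0.60 ± 0.38 and Ccl25 by -0.47 ± 0.38 (SD, n = 3 probes), while Cxcl14, abundant in epithelium, differed by 0.45 ± 0.20. Ccr10, which binds Ccl27 and Ccl28, was well above background on the standard array only, at -5.60, or at least 1.52-fold lower under enrichment, and the Ccl25 receptor Ccr9 differed by 0.21 ± 0.21. Ccr6, found on B cells and interleukin 17-producing T cells, was at -3.22 and -2.21, a difference of 1.01 ± 0.21, which was 0.57 with normexp and 0.80 with ribosomal centring. Its ligand Ccl20 was not well above background on either array. Cxcl17, a mucosal chemokine listed as BC024561, was at 1.85 and 3.60, a difference of 1.75. Of 4 measured keratinocyte markers 2 were at least 2-fold higher, Krt14 at 3.15 and Krt5 at 2.01. Krt10 was at 0.15 and Lor at 0.18, and Krt1 was not well above background on either array.

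Among the other genes, Xcl1, a product of natural killer and CD8 T cells, differed by -0.42 ± 0.21. Its receptor Xcr1, the mark of cross-presenting dendritic cells, differed by -0.72 ± 0.17 (SD, n = 2 probes), beside Clec9a of the same cells at -0.74 and a dendritic list with a median of -0.12. Ccr1l1, a Ccr1-like receptor gene, was at -3.59 under standard housing and -6.31 under enrichment, where it was not well above background, and was at least 6.13-fold lower. Of the 5 members seen on a single array, it was the 1 whose bound reached 2-fold. Over all genes, that held for 56.6% of those seen on the standard array only and 13.1% of those on the enriched array only. Ccr8 was not well above background on either array.

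**Figure D4:**
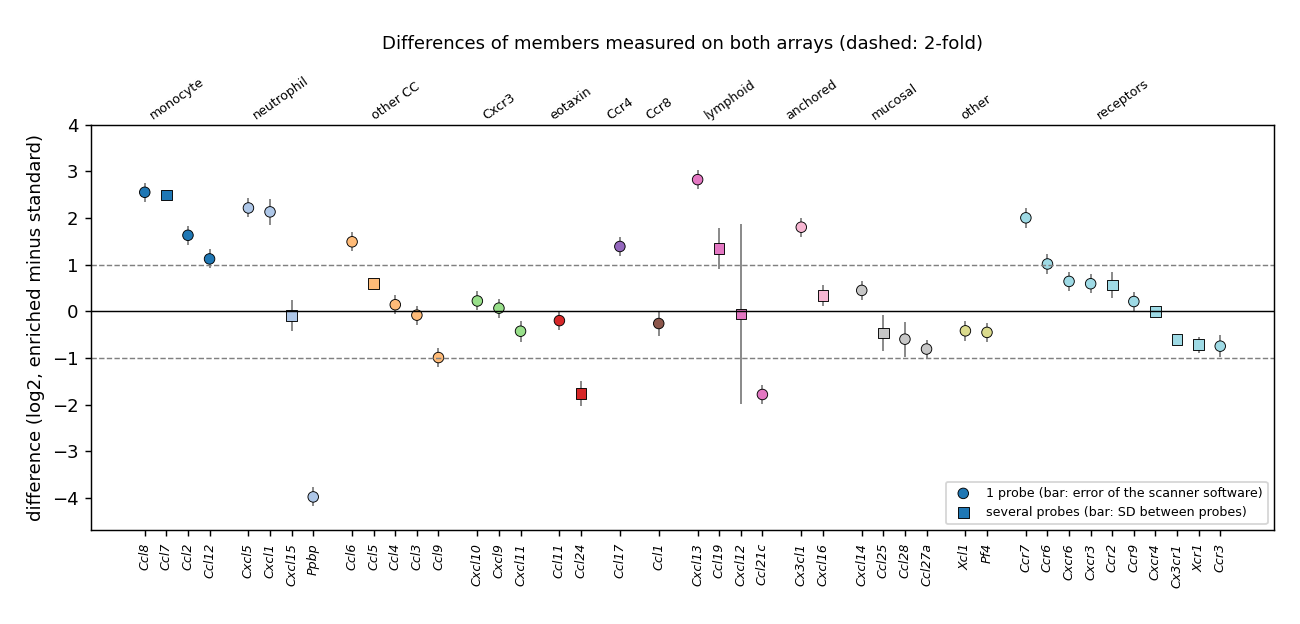
Difference (log2, enriched minus standard) of members measured on both arrays, grouped by role; bars are the error of the scanner software for genes with 1 probe (circles) and the SD between probes for the others (squares), and dashed lines mark 2-fold. The genes listed as Ccr2 ligands all lie above 1, the Cxcr3 ligands lie near 0, and Ppbp is lowest at -3.98.

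Genes that act with chemokines were taken from lists. The counts below stand beside shares over all measured genes of 5.71% at least 2-fold higher and 9.46% lower. Of 16 measured inducers of inflammatory chemokines, 3 were at least 2-fold higher and none lower, with a median of 0.52. These were Il6 at 2.33, the NF-kB cofactor gene Nfkbiz at 1.45 and the feedback inhibitor Tnfaip3 at 1.05, while Il1b was at 0.98, Tnf at 0.68 and Osm at -0.80. Csf2 was well above background on the enriched array only, and Il17a and Rel on neither. Of 23 measured genes of receptor signalling 2 were at least 2-fold higher and none lower, with a median of 0.19. These were Rgs16, an inhibitor of G proteins, at 1.71, and Gnai1 at 1.07 ± 1.12 (SD, n = 4 probes), whose probes spread by more than the difference, followed by Rgs1 at 0.86. Of 10 measured genes that cut or present chemokines, 2 were at least 2-fold higher, the heparan sulfate enzyme Hs3st1 at 1.33 and the proteoglycan Sdc1 at 1.17, and 1 was lower, the neutrophil collagenase Mmp8 at -4.25, with a median of 0.41. Of 4 measured scavenging receptors none passed 2-fold, with a median of -0.28. Ackr1 differed by -0.39, Ackr2 by -0.52 and Ccrl2 by -0.17, and Ackr4, a scavenger of Ccl19 and Ccl21, was well above background on the standard array only, at least 2.56-fold higher there, as was a second probe named Ccrl1, at least 2.40-fold. The list of older names also held Aimp1 and Sdf2, which are not chemokines and were both at -0.25, beside Cxcr2 and Cxcr5, and had a median of 0.23.

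**Figure D5:**
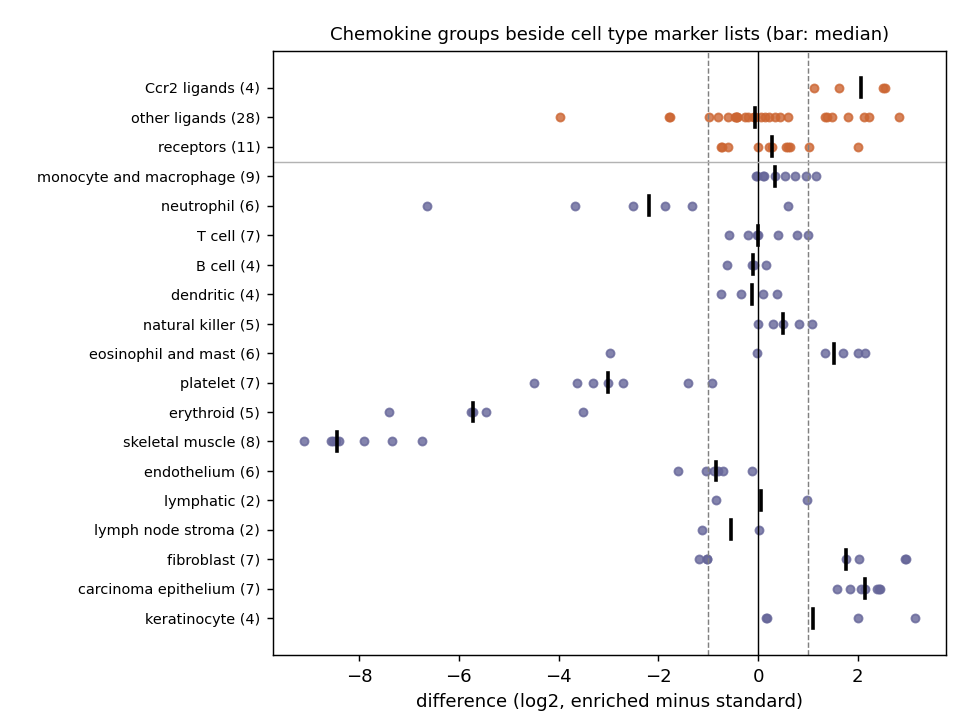
Differences (log2, enriched minus standard) of the chemokine groups (orange) and of the cell type marker lists (violet), with each point a gene measured on both arrays, the number of genes in brackets, black bars at the medians and dashed lines at 2-fold. The genes listed as Ccr2 ligands have a median of 2.06 while monocyte and macrophage markers have one of 0.34. Platelet, erythroid and muscle markers lie far below 0.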

How the data were processed

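The authors deposited scanner output holding linear intensities. The submitters' processing notes name Agilent Feature Extraction, version 10.7.1.1, whose processed intensity is background-corrected per the file headers. They also deposited a log2 table of 30319 probes, whose columns correlated with the log2 scanner values across probes (r = 1.00 for both pools) and had medians of 8.54 for the standard and 8.55 for the enriched pool. Its scaling and centring stay unknown, and it served as an alternative.

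Here log2 of the processed intensity minus the array's 75th percentile was used (753 and 984 on the linear scale), without control spots and outlier marks (66 and 70 spots). Both arrays lie on 1 slide, and none of their 43379 spots was saturated, with 77.2% and 77.4% well above background. Probes well above background on both arrays were averaged per gene. Symbols were updated through RefSeq accessions (GRCm38.p6), with members kept by their name in the files, 3 of which have a newer symbol. For a gene seen on 1 array, the bound sets its level against the higher of its own dim signal and the lowest signal well above background there (-5.68 standard, -6.20 enriched).

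With 1 array per group there is no p-value, and genes were counted at 2-fold. Members were to be accounted for, with both levels for those past 2-fold and the 3 largest differences and defining markers of other lists, and further genes of these lists were named after their values were seen. Members, lists and alternatives were chosen with earlier results of these data known. Motifs were chosen after values were seen. Steps were tested on simulated data with Python 3.11.15, numpy 2.4.6 and pandas 2.3.3, and normexp used limma 3.58.1 in R 4.3.3. Some genes counted in these totals are not reported by name here.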

Additional observations from a re-analysis of the deposited data

How the results depend on the processing

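The settings tried were normexp background correction (offset 50), quantile normalization, centring on the median of probes well above background or on ribosomal protein genes, the authors' log2 table, no filter or a stricter filter on dim probes, the brightest probe per gene, and outlier spots kept. All 16 genes past 2-fold kept their direction under these 9 alternatives where measured, and 12 stayed past 2-fold throughout. Cxcl1 was left out by the stricter filter. The exceptions were Cxcl1 (lowest 0.84), Ccr6 (0.57), Ccl12 (0.91) and Ccl17 (0.98). The count of higher genes ran from 10 to 14. The count of lower genes was 5 with ribosomal centring and 5 without a filter, which adds dim genes. With ribosomal centring the medians were -0.0045 for all members, -0.11 for ligands and 0.071 for receptors. Genes bounded at 2-fold or more numbered 2 with quantile normalization and 2 with ribosomal centring, against 1. Of alternatives added after seeing the data, counting the 5 genes under older names gave 16 higher genes and a receptor median of 0.56, and leaving out Ppbp and Pf4 or the genes with probes on both sides of 0 left 13 higher. Where no value shows the cause, the cause was not tested. No paired analysis was possible because each group has 1 pooled sample, and no sample could be left out. Dim signal limited the 8 members not well above background on both arrays, which have a bound or no fold.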
